A study of Mus musculus with 12 samples.

Results

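The genes that encode matrix metalloproteases, ADAM and ADAMTS proteases and their TIMP inhibitors were examined for BMAL1 binding in control and senescent mouse fibroblasts. They were taken as the protein-coding genes of the GENCODE M21 annotation whose symbol begins with Mmp, Adam (Adamts included) or Timp. The rule found 84 of 21864 protein-coding genes, namely 22 Mmp, 34 Adam, 19 Adamts, 5 Adamts-like (Adamtsl) and 4 Timp genes. BMAL1-ChIP-seq was performed on primary mouse adult fibroblasts (MAFs), which the study's methods describe as grown from mouse ears. Control MAFs were sham irradiated, and senescent MAFs had received 20 Gy of X-rays. Both groups were treated with 100 nM dexamethasone, which sets cultured cells to a common circadian phase, and were collected 12 hours afterwards. The groups were compared over 6 peak lists (n = 3 control and n = 3 senescent libraries), each called by the authors from its own library.

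BMAL1 is the partner of CLOCK in the circadian transcription factor that binds the E-box CACGTG. MMPs are zinc endopeptidases that cleave collagens and other matrix proteins, and several belong to the secretory program of senescent fibroblasts. ADAMs are mostly membrane-bound and shed the ectodomains of surface proteins, whereas ADAMTS proteases are secreted and cleave proteoglycans and procollagens. ADAMTS-like proteins lack the protease domain and sit in the microfibril network, and TIMPs bind and block the active proteases. AP-1, the Fos and Jun family, binds TGAGTCA, or on the other strand TGACTCA, and is a classical regulator of collagenase and stromelysin genes.

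The lists held 2794, 3349 and 10601 peaks in control replicates 1, 2 and 3, and 4220, 9805 and 5053 peaks in senescent replicates 1, 2 and 3. They gave no reads, so the depth behind a peak is unknown, and a gene without a peak was not called rather than shown to be unbound. Peaks were ranked within their list by the authors' score and the rank was written as a percentile, from 0 for the best peak to 100 for the weakest. As a check of the precipitation, 6 clock and clock output genes (Per1, Per2, Nr1d1, Nr1d2, Dbp and Ciart) had a peak in all 6 libraries, and their best peaks ranked between 1 and 11 in each list. Markers of fibroblasts could not be read from peak lists. Nothing in the sources used here says that replicates came from separate animals, so p-values measure only the spread between these libraries. With 3 libraries per group the smallest p of the exact permutation test was 0.1.

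To determine how often BMAL1 was called at these genes, each peak was given to the gene whose start site was nearest. A peak was called at 7, 8 and 17 of the 84 genes in control replicates 1 to 3, and at 12, 23 and 15 in senescent replicates 1 to 3. These were 8.33%, 9.52% and 20.2% of the genes in control libraries and 14.3%, 27.4% and 17.9% in senescent libraries. Among all protein-coding genes the shares were 9.32%, 10.8% and 25.3% in control and 14.4%, 26.5% and 16.6% in senescent libraries. The 95% Wilson interval of the MMP, ADAM and TIMP share contained the share of all genes in every library, for instance 4.10% to 16.2% in control replicate 1 and 18.99% to 37.7% in senescent replicate 2. The intervals cover counting error only. Control libraries had a mean of 12.7% ± 6.56 and senescent libraries 19.8% ± 6.77 (SD, n = 3 each), and the difference of 7.14 percentage points was within the spread of the replicates (p = 0.3 in an exact permutation, two-sided). The corresponding difference over all genes was 4.0 percentage points (p = 0.5 in an exact permutation, two-sided).

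**Figure D1:**
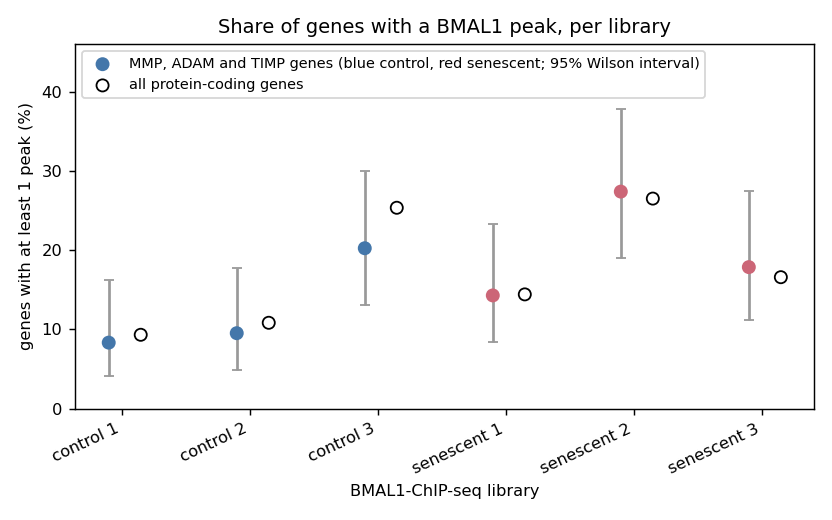
Share of genes with at least 1 BMAL1 peak (y axis, %) in each of the 6 libraries (x axis), for the 84 MMP, ADAM and TIMP genes (filled points, blue for control and red for senescent, with 95% Wilson intervals) and for all 21864 protein-coding genes (open circles). The filled and open points move together, and both are highest in control replicate 3 and senescent replicate 2, whose lists are the longest of their group.

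Since list length moves every gene, the share of MMP, ADAM and TIMP genes was divided by the share of all genes in the same library. The ratio was 0.894, 0.879 and 0.799 in control libraries and 0.991, 1.03 and 1.08 in senescent libraries. The groups did not overlap, and the ratio was 0.176 higher in senescent libraries (0.857 ± 0.0513 against 1.03 ± 0.0429, SD, n = 3 each), which reached the smallest p of the exact permutation test (two-sided, p = 0.1). The difference was 0.312 when only peaks within 100 kb of a start site were counted (exact permutation, two-sided, p = 0.1). It was not kept when list length was set equal. With the 2794 best-scoring peaks of every list it was 0.053 (p = 0.8 in an exact permutation, two-sided).

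Over the 6 libraries, 30 of the 84 genes (35.7%) had a peak in at least 1 library, against 36.4% of all genes. Of these 30 genes, 11 were called in a single library and 19 in at least 2. A peak in all 6 libraries was found at 4 genes (Adam32, Adamts1, Adamts17 and Timp3), or 4.76% against 5.14% of all genes. Calls in at least 2 senescent libraries and no control library were made at 4 genes (Adamts7, Adamtsl2, Mmp14 and Timp1), or 4.76% against 3.42% of all genes. The reverse pattern was found at 2 genes (Adamts5 and Adamtsl3), or 2.38% against 1.64%. More senescent than control libraries called a peak at 17 genes (20.2%, against 16.7% of all genes), and more control than senescent libraries did so at 5 genes (5.95%, against 9.35%). The shares lay near those of all genes. For the 54 genes without a peak, the nearest peak of any library was between 9.87 kb and 2808 kb from a start site (median 145 kb).

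The families differed in how many of their genes were called. A peak in any library was found at 4 of 22 Mmp, 9 of 34 Adam, 9 of 19 Adamts, 4 of 5 Adamtsl and 4 of 4 Timp genes. The stretch of genome that falls to a gene under the nearest-start rule differed in the same comparison. Its median length was 42.4 kb for Mmp, 60.1 kb for Adam, 201.4 kb for Adamts, 40.4 kb for Adamtsl and 51.6 kb for Timp genes. Called MMP, ADAM and TIMP genes had a median stretch of 121.6 kb and uncalled ones 57.1 kb, and over all genes the medians were 63.55 kb and 41.2 kb. The part of this length in the family counts was not tested.

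**Figure D2:**
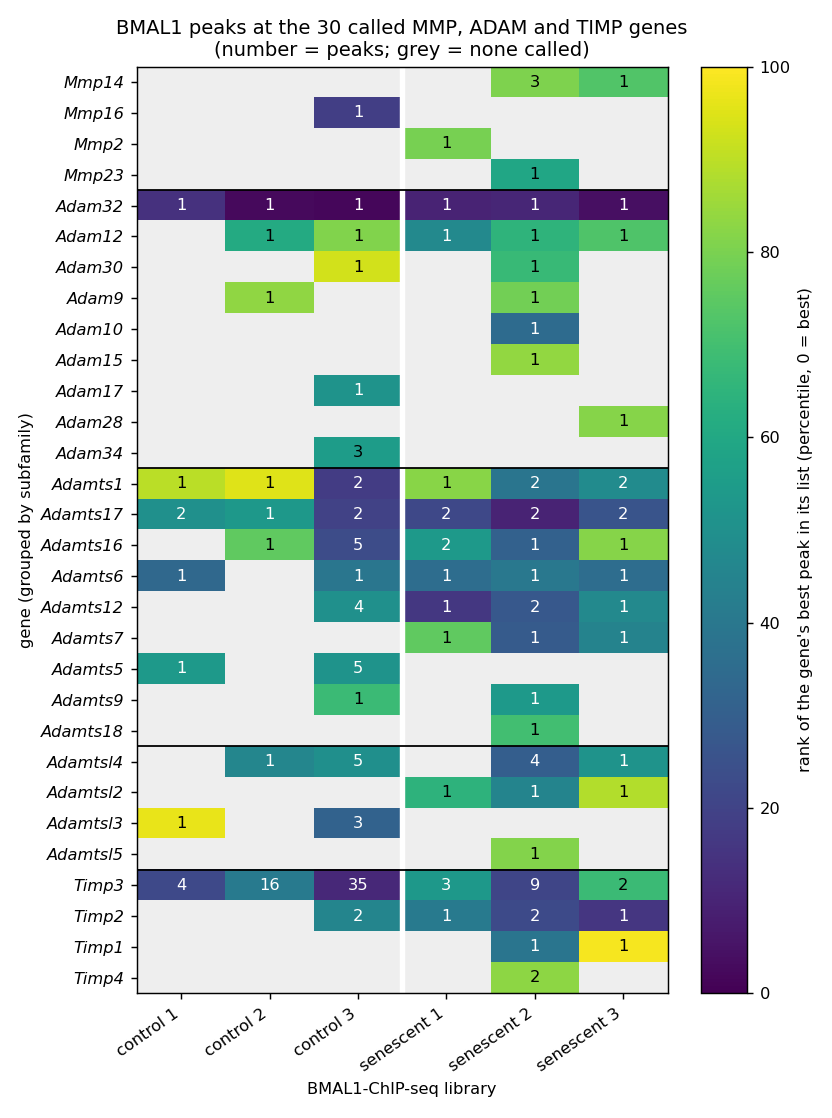
Number of BMAL1 peaks (numbers in cells) and rank percentile of the best peak (colour, 0 is the best of its list) for the 30 MMP, ADAM and TIMP genes with a peak (rows, grouped by family) in the 6 libraries (columns, control left of the white line). Adam32 has the darkest row, with 1 peak in every library. Timp3 has the most peaks, from 4 to 35 in control and from 2 to 9 in senescent libraries.

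To show what lay under the recurrent peaks, overlapping peaks of the libraries were merged, which gave 103 regions at the 30 genes among 16818 regions in all. Of the 103 regions, 4 were called in all 6 libraries, at Adam32, Adamts1, Adamts17 and Timp3, and 3 of these 4 held an AP-1 motif within 100 bp of the centre of their best peak. The AP-1 motif was held by 10.3% of the 1106 regions called in all 6 libraries genome-wide. With only 4 regions the 95% Wilson interval was wide, from 30.1% to 95.4%. An E-box was held by 1 of the 4, against 44.6% genome-wide. The Adam32 motif lay at -97 bp from the centre, near the edge of the window. It fell outside the window of the Adam32 peaks of control replicate 2 and senescent replicate 1. The sequences of the regions at Adam32, Adamts1 and Adamts17 are shown because these genes were called in all 6 libraries and the windows hold the motifs. They are from the plus strand of GRCm38 (mm10), 5′ to 3′, with the E-box CACGTG, its variant CACGTT and the AP-1 motif (TGAGTCA or TGACTCA) in capitals.
Adam32, chr8:24975364-24975400: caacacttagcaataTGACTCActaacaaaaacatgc
Adamts1 intron, chr16:85800789-85800883: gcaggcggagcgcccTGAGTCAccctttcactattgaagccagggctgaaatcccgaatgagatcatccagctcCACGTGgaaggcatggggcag
Adamts17 promoter, chr7:66839547-66839615: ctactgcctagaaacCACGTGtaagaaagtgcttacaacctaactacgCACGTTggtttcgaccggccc
Adamts17 intron, chr7:66962872-66963017: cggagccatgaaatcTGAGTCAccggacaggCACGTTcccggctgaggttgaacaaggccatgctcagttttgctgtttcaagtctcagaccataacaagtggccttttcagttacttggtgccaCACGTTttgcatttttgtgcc

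Among the Mmp genes, binding was called at Mmp14, Mmp2, Mmp16 and Mmp23. Mmp14 encodes the membrane-type protease that activates pro-MMP2, and it had 3 peaks in senescent replicate 2, 1 in senescent replicate 3 and none in the other libraries. The region shared by both libraries (chr14:54435164-54435436) lay in an intron 3693 bp after the start site and held an AP-1 motif. Its peaks were weak, at percentiles 94.4 and 73.0, and none of the Mmp14 peaks stayed among the 2794 best of its list. Senescent replicate 2 also had a peak 53 bp before the Mmp14 start site. The AP-1 motif of the intron is printed here from the plus strand.
Mmp14 intron, chr14:54435353-54435389: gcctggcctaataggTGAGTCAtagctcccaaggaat

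The other Mmp calls came from 1 library each. Mmp2 (gelatinase A) had 1 peak in senescent replicate 1, 26197 bp before its start. A peak of control replicate 3 lay closer to the Mmp2 start, at 20.2 kb, but was given to Lpcat2. Mmp23 had 1 intronic peak in senescent replicate 2, 1689 bp after its start. For Mmp16, a membrane-type protease, the peak of control replicate 3 lay 689730 bp before the start and was ranked at percentile 18.4. No peak was called at Mmp9 (gelatinase B) or Mmp17 in any library, and the nearest peaks were 68.3 kb and 65.8 kb from their start sites.

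Collagenases, stromelysins and other secreted MMPs lie in 1 cluster on chromosome 9 (GRCm38 positions 7272514 to 7699585), which holds Mmp13, Mmp12, Mmp1b, Mmp3, Mmp10, Mmp8, Mmp27, Mmp20 and Mmp7. No library had a peak anywhere in this cluster. The nearest peak of any library was a peak of senescent replicate 2 that was given to Yap1, and it lay 313 kb from the start of Mmp7 and 732 kb from that of Mmp13. The promoters of these genes were compared with the peaks through their RefSeq sequence (300 bases, from 250 before to 50 after each start, GRCm38.p6), which matched 57 promoters of 52 MMP, ADAM and TIMP genes. An AP-1 motif on either strand was found in 9 of the 57 promoters (15.8%), against 5.20% of 32851 promoters of all genes. The E-box was in 5 (8.77%, against 7.15%) and the variant CACGTT or its complement in 2 (3.51%, against 4.68%).

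Of the 9 promoters with an AP-1 motif, 6 belonged to the chromosome 9 cluster, at Mmp13, Mmp12, Mmp1b, Mmp3, Mmp10 and Mmp7. In these 6 the motif began between 35 and 93 bp before the start site. The windows at Mmp13 (collagenase 3) and Mmp3 (stromelysin 1) are shown because these genes stand for the cluster without a BMAL1 peak. The motif is in capitals, on the plus strand, which is the strand of both genes. A motif in these letters is a description of the sequence and says nothing of whether AP-1 was bound.
Mmp13 promoter, chr9:7272464-7272500: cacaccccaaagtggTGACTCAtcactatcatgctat
Mmp3 promoter, chr9:7445761-7445797: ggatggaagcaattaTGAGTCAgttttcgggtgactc

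Among the ADAM genes, the region given to Adam32 had the best mean percentile of the MMP, ADAM and TIMP regions called in at least 2 libraries. It was called in all 6 libraries, at percentiles 14.2, 2.7 and 1.7 in control replicates 1 to 3 and 9.9, 10.6 and 4.0 in senescent replicates 1 to 3. It was thus at percentile 14.2 or better in every library, and the ranges of the groups overlapped. The region (chr8:24975119-24975750) lay 26675 bp before the start of Adam32 but inside an intron of the neighbouring Adam9, a broadly expressed ADAM. Adam9 itself had a peak 41 bp before its start site in senescent replicate 2 and an intronic peak with an AP-1 motif in control replicate 2.

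The major sheddases were called once each. ADAM10 cleaves Notch receptors, and Adam10 had a promoter peak in senescent replicate 2, 150 bp before the start site and with an E-box, at percentile 34.9. ADAM17 releases tumour necrosis factor, and Adam17 had a peak 4 bp before its start site in control replicate 3, at percentile 51.3. A single library also called Adam15, Adam28 and Adam34, and the Adam30 peak of control replicate 3 and senescent replicate 2 lay in an intron of Notch2. Adam12, which sheds growth factors such as HB-EGF, had 1 region 36341 bp before its start that was called in 5 libraries (all but control replicate 1), at percentiles from 46.9 to 81.0. The E-box of the Adam10 promoter is shown on the plus strand, which is the strand of the gene.
Adam10 promoter, chr9:70678903-70678938: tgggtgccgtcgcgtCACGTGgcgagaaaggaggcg

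Leaving Timp3 aside, the Adamts genes held 11 of the 22 regions that were called in at least 2 libraries. They also had the longest stretches of genome of the families, with a median of 201.4 kb, and the part of this length in the count was not tested. Adamts17, whose human counterpart is mutated in a Weill-Marchesani-like syndrome, had 2 recurrent regions. Its promoter region (chr7:66839447-66839762, 152 bp before the start site) was called in every library except control replicate 2, at percentiles 76.1 and 19.6 in control replicates 1 and 3 and 26.4, 10.0 and 26.0 in senescent replicates 1 to 3. Its intronic region, 123103 bp after the start, was called in all 6 libraries, at percentiles 50.1, 53.2 and 22.1 in control and 21.7, 25.7 and 26.0 in senescent libraries. Both regions ranked at percentile 26.4 or better in each senescent list, and control replicate 3 overlapped the senescent libraries at both. As shown above, the promoter held an E-box with the variant CACGTT 33 bp after it, and the intron held an AP-1 motif with 2 copies of the variant.

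Adamts1, which cleaves aggrecan and versican, had an intronic region 2262 bp after its start (chr16:85800710-85800987) in all 6 libraries. The calls were mostly weak, at percentiles 89.6, 95.2 and 17.7 in control and 82.3, 58.2 and 48.1 in senescent libraries. The groups overlapped, and in lists of equal length the gene was called in 2 control and 1 senescent libraries. The region held both motifs, with the starts of the AP-1 motif and the E-box 59 bp apart. A further region with an E-box, 125849 bp downstream of the start, was called in senescent replicates 2 and 3.

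Adamts12 and Adamts7 encode related proteases that cleave the cartilage oligomeric matrix protein. An Adamts12 region in the first kilobases of the gene (chr15:11066091-11066497, intronic, 1489 bp after the start) was called in the 3 senescent libraries, at percentiles 16.2, 27.6 and 47.2, and in no control library. Control replicate 3 had 4 other peaks in introns of Adamts12, at percentiles from 50.2 to 96.8, the nearest of them 1122 bp and 731 bp after the start. In lists of equal length Adamts12 was called in 3 senescent and 0 control libraries. The Adamts7 region (chr9:90198473-90198791, intronic, 35456 bp after the start) was likewise called in the 3 senescent libraries, at percentiles 75.5, 28.9 and 44.5, and in no control library, and it held neither motif. In lists of equal length it was called in 1 senescent library.

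Adamts6 had a promoter region with an E-box 962 bp before its start (chr13:104286822-104287164), called in control replicate 1 and the 3 senescent libraries. Its percentiles were close together, at 33.7 in control replicate 1 and 35.9, 40.1 and 35.7 in senescent replicates 1 to 3. Adamts16 had 6 regions and was called in 2 control and 3 senescent libraries. Of these, the region 61115 bp before its start, with the variant E-box and an AP-1 motif, was called in senescent replicates 1 and 2, and an intronic region 38696 bp after the start was called in control replicates 2 and 3. The windows at Adamts12 and Adamts6 are shown on the plus strand, which is the strand of both genes, with the E-box variant and the E-box in capitals.
Adamts12 intron, chr15:11066286-11066321: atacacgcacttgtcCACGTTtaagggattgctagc
Adamts6 promoter, chr13:104286977-104287012: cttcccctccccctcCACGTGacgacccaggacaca

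Adamts5, a major aggrecanase of cartilage, was called only in control libraries, with 1 peak in control replicate 1 and 5 in control replicate 3. None of these peaks was near the gene. They lay between 84036 and 684487 bp before its start site, and the only region shared by both libraries was the farthest, at percentiles 53.9 and 59.2. Adamts9, a versican-cleaving protease, had 1 intronic peak in senescent replicate 2, 2129 bp after its start, and 1 peak in control replicate 3 at 314000 bp before it. Adamts18 had 1 intronic peak with an E-box, in senescent replicate 2. No peak was called at Adamts15, whose nearest peak lay 282 kb from its start.

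Among the ADAMTS-like genes, Adamtsl2 was called in the 3 senescent libraries only. Its protein binds fibrillin and latent TGF-β binding protein. The region lay 1466 bp before the start site (chr2:27077716-27078110), held no E-box or AP-1 motif within 100 bp of its centre, and ranked at percentiles 64.7, 45.3 and 88.4. In lists of equal length it was called in 1 senescent library. Adamts7 and Adamtsl2 were the 2 genes of the 84 (2.38%) with more peaks in every senescent than in every control library, against 1.86% of all genes. None had more peaks in every control library, against 0.668% of all genes.

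Adamtsl3 showed calls in control libraries only, with 1 peak in control replicate 1 and 3 in control replicate 3. The shared region (chr7:82397193-82397471, intronic, 60193 bp after the start) held an E-box and was weak, at percentiles 96.6 and 82.4. Adamtsl4, which acts in fibrillin microfibrils of the eye, was called in control replicates 2 and 3 and senescent replicates 2 and 3. Its promoter region, 368 bp before the start, held an AP-1 motif and ranked at percentiles 45.8, 54.3 and 36.2 in control replicates 2 and 3 and senescent replicate 2. Adamtsl5 had 1 peak, with an E-box, in senescent replicate 2. The Adamtsl4 window is shown on the plus strand, opposite to the gene, with the motif in capitals.
Adamtsl4 promoter, chr3:95688313-95688349: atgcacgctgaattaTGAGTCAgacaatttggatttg

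All 4 inhibitor genes were called. Timp1, the secreted inhibitor of most MMPs, had 1 peak in senescent replicate 2, 30 bp before its start site at percentile 39.0, and 1 in senescent replicate 3, 859 bp after it at percentile 98.6. These were separate regions, no control library had a peak, and in lists of equal length no library called the gene. Timp2, which inhibits MMPs and takes part in the activation of pro-MMP2, had a region 5634 bp before its start (chr11:118360773-118361459) in control replicate 3 and the 3 senescent libraries. The percentile was 71.0 in control replicate 3 and 41.3, 41.8 and 15.9 in the senescent libraries, so the control call was the weakest. In lists of equal length Timp2 was called in 3 senescent and 0 control libraries. A neighbouring region with an AP-1 motif, 9846 bp before the start, was called in control replicate 3 and senescent replicate 2 and is shown on the plus strand, opposite to the gene.
Timp2 upstream, chr11:118365314-118365350: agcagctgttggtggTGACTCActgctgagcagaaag

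Timp4 had 2 peaks in senescent replicate 2 alone, 19899 and 31823 bp before its start. Timp1, Timp3 and Timp4 each lie inside a synapsin gene on the opposite strand (Syn1, Syn3 and Syn2), so their peaks were also within or beside the host. The region at the Timp1 start lay in an intron of Syn1, and all 42 Timp3 regions lay in Syn3. Which of the paired genes a peak belongs to could not be told from its position.

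Timp3, which stays bound to the matrix and also inhibits ADAM and ADAMTS proteases, had the most peaks of the 84 genes in control libraries. It had 4, 16 and 35 peaks in control replicates 1 to 3 and 3, 9 and 2 in senescent replicates 1 to 3, where the median gene with a peak had 1. In order of peak number among all genes it stood at 34, 4 and 3 in control libraries and at 72, 19 and 273 in senescent libraries. These are the best places among tied genes. Genes with at least as many peaks numbered 67, 4 and 3 in control and 195, 30 and 883 in senescent libraries. The bases covered were 639, 2590 and 11396 in control and 1030, 1790 and 369 in senescent libraries. The groups overlapped in both measures, and neither difference exceeded the spread of the replicates. The mean was 18.3 ± 15.6 peaks in control and 4.67 ± 3.79 peaks in senescent libraries (SD, n = 3 each, p = 0.2 in an exact permutation, two-sided), and the test of bases covered gave p = 0.3 by the same exact permutation.

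The Timp3 peaks were spread over the gene rather than placed at its promoter. Of 42 regions 33 lay inside Timp3 and 29 were called in 1 library. The region called in all 6 libraries (chr10:86309785-86311672) lay in the Timp3 intron 10363 bp after the start, at percentiles 21.9, 44.1 and 34.1 in control and 53.3, 47.7 and 68.2 in senescent libraries. These percentiles are of the best peak of each library in the merged region, and by them every control library ranked better than every senescent library. Control replicate 2 had separate peaks inside the region, and its 44.1 came from a peak 10985 bp after the start. Its peak at 10462 bp, beside the senescent peaks at 10182, 10415 and 10402 bp, was at percentile 97.4. That was weaker than every senescent library, so the order of the groups depended on the merging. The ranks themselves, which depend on list length, overlapped, with control replicate 3 at 3610.5 and senescent replicate 1 at 2248.5. The difference in percentile was not tested. A region at the start site, 190 bp after it, was called in control replicate 3 and senescent replicate 2. Of all Timp3 peaks, 2 held an E-box (1 in control replicate 3 and 1 in senescent replicate 1) and 1 an AP-1 motif (senescent replicate 2).

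**Figure D3:**
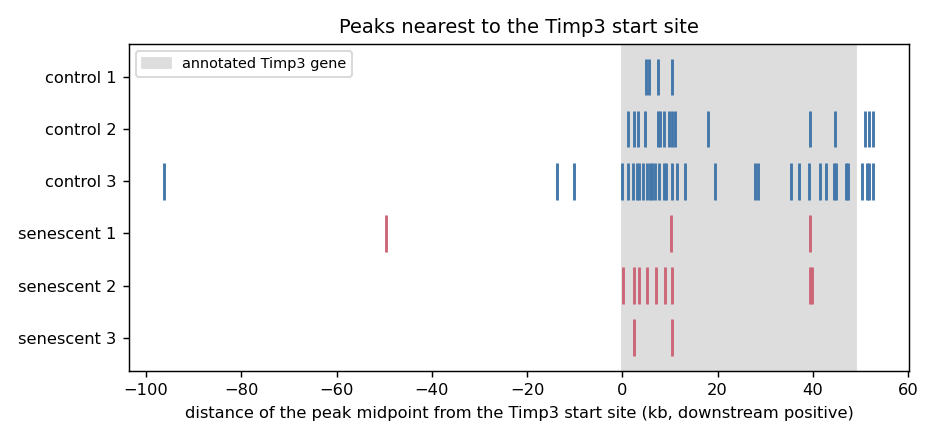
Midpoints of the BMAL1 peaks given to Timp3 (vertical ticks) by distance from the Timp3 start site (x axis, kb, downstream positive) in the 6 libraries (y axis, control blue, senescent red), with the gene in grey. Peaks fill the first part of the gene in control replicates 2 and 3 and are fewer in the senescent libraries, and the ticks near 10.4 kb mark the region called in every library.

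The share of all peaks that fell to MMP, ADAM and TIMP genes was also compared. These genes held 11, 23 and 73 peaks in control libraries and 16, 41 and 18 in senescent libraries, which was 0.394%, 0.687% and 0.689% of control peaks and 0.379%, 0.418% and 0.356% of senescent peaks. Their stretches made up 0.507% of the genome. The difference of -0.205 percentage points (0.590% ± 0.170 for control, 0.385% ± 0.0313 for senescent, SD, n = 3 each) did not exceed the spread of the replicates (p = 0.2 in an exact permutation, two-sided). Timp3 made up 36.4%, 69.6% and 47.9% of these peaks in control and 18.75%, 21.95% and 11.1% in senescent libraries. Without Timp3 the direction turned, with 0.274% in control and 0.317% in senescent libraries (p = 0.4 in an exact permutation, two-sided).

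Peaks at promoters, meaning within 1000 bp of a start site, were 18.2%, 4.35% and 6.85% of the MMP, ADAM and TIMP peaks in control libraries and 12.5%, 21.95% and 16.7% in senescent libraries. Of all peaks, 31.8%, 32.9% and 31.6% were at promoters in control and 40.4%, 45.01% and 39.9% in senescent libraries, so the share was higher than among the MMP, ADAM and TIMP peaks in each library. A promoter peak in at least 2 libraries was found at 5 genes (Adamts17, Adamts6, Adamtsl4, Timp1 and Timp3), or 5.95% against 12.8% of all genes. The difference between groups of 7.25 percentage points (9.79% ± 7.37 and 17.0% ± 4.74, SD, n = 3 each) was within the replicate spread (p = 0.3 in an exact permutation, two-sided). It was 1.92 percentage points without Timp3. Within 3000 bp of a start site it was 16.8 percentage points, and in lists of equal length 13.4 percentage points (p = 0.1 each, exact permutation, two-sided). Neither setting was run over all peaks or without Timp3. Over all peaks the difference within 1000 bp was 9.65 percentage points, from 32.1% in control to 41.7% in senescent libraries (p = 0.1, exact permutation, two-sided). It was thus larger than that of the MMP, ADAM and TIMP peaks.

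The motifs of the peaks were then compared within 100 bp of the peak centre. The E-box was found in 4, 1 and 4 of the MMP, ADAM and TIMP peaks in control and in 4, 10 and 5 in senescent libraries. These were 36.4%, 4.35% and 5.48% in control and 25%, 24.4% and 27.8% in senescent libraries, against 30.8%, 23.9% and 13.6% and 39.98%, 23.2% and 33.3% of all peaks. The senescent libraries lay close together and the control libraries lay on both sides of them. The difference of 10.3 percentage points (p = 0.4 in an exact permutation, two-sided, with n = 3 in each group) was 2.08 percentage points without Timp3, 20.8 without control replicate 1, 4.80 without control replicate 2 and 5.37 without control replicate 3. Other windows gave larger differences and no overlap between groups. With the motif within 50 bp the means were 3.49% for control and 24.1% for senescent libraries, 20.6 percentage points apart, and with the motif anywhere in the peak they were 7.89% and 29.7%, 21.8 percentage points apart (p = 0.1 each, exact permutation, two-sided). Neither of these settings was run without Timp3 or set against all peaks. The median width of the MMP, ADAM and TIMP peaks was 143, 152 and 191 bp in control and 224, 174 and 244 bp in senescent libraries. The part of peak width in the count anywhere in the peak was not tested. In flanking windows 2000 bp away the E-box share averaged 3.65% for control and 1.04% for senescent libraries.

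The AP-1 motif was found in 27.3%, 17.4% and 12.3% of the MMP, ADAM and TIMP peaks in control and in 18.75%, 21.95% and 22.2% in senescent libraries. The groups overlapped, at 19.0% ± 7.60 and 20.97% ± 1.93 (SD, n = 3 each, p = 0.7 in an exact permutation, two-sided), and the flanking windows held it in 6.64% and 6.49%. Over all peaks it averaged 12.9% for control and 16.7% for senescent libraries, and those groups did not overlap (p = 0.1 in an exact permutation, two-sided). For the MMP, ADAM and TIMP peaks the direction rested on control replicate 3 and on Timp3. The difference was 1.98 percentage points with all peaks, 12.3 in lists of equal length (p = 0.3, exact permutation) and -1.36 without control replicate 3. Without Timp3 it was -16.9, with means of 41.2% for control and 24.4% for senescent libraries (p = 0.3, exact permutation). Control replicates 1 and 2 kept only 7 peaks each without Timp3. The variant CACGTT averaged 10.8% ± 6.60 for control and 21.9% ± 9.53 for senescent libraries (SD, n = 3 each, p = 0.2 in an exact permutation, two-sided).

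**Figure D4:**
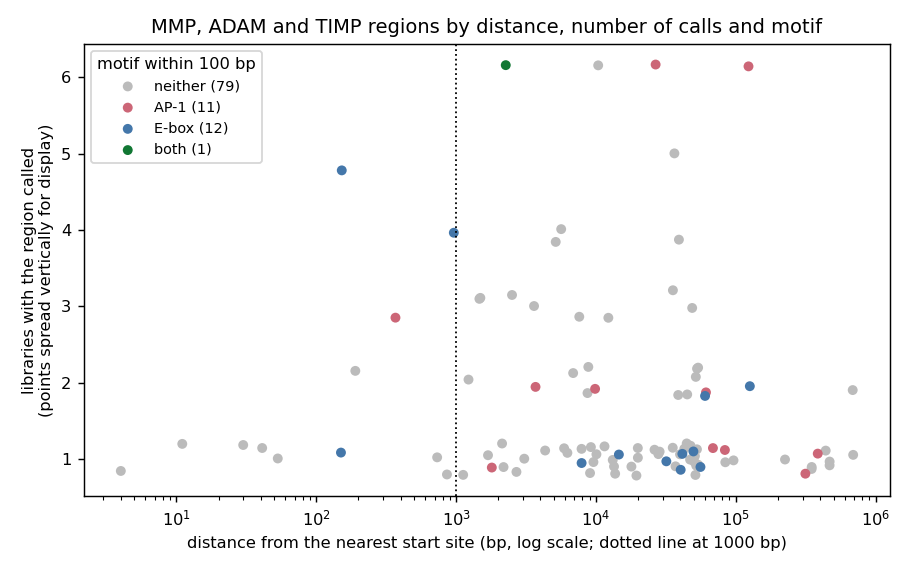
The 103 MMP, ADAM and TIMP regions by distance from the nearest start site (x axis, bp, log scale, dotted line at 1000 bp) and number of libraries that called them (y axis, points spread vertically for display), coloured by the motif within 100 bp of the centre of the best peak. Of the regions, 12 lie left of the dotted line, and 3 of the 4 in the top row hold an AP-1 motif, 1 of them together with an E-box.

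Read by region, 12 of the 103 held an AP-1 motif (11.7%, against 16.5% of all 16818 regions) and 13 an E-box (12.6%, against 16.7%). No Timp3 region held an AP-1 motif at the centre of its best peak, so the share was 19.7% over the 61 regions of the other genes. Among the 35 regions called in at least 2 libraries, 7 held an AP-1 motif (20.0%, 95% Wilson interval 10.04% to 35.9%), against 15.9% of all such regions. Calls in at least 2 senescent and no control libraries were made at 6 of the 103 regions, against 1588 of the 16818 regions genome-wide. Of these 6, 2 held an AP-1 motif, at Mmp14 and Adamts16, and 1 an E-box, at Adamts1, against 22.9% and 37.8% of the 1588. The reverse pattern was found at 9 of the 103 regions, or 3 of 61 without Timp3, against 986 of 16818. Of these 9, 0 held an AP-1 motif and 1 an E-box, against 14.6% and 8.01% of the 986. The 103 regions lay within the gene they were given to in 58 cases, only within another gene in 13, and between genes in 32. The median rank percentile of the peaks was 74.2, 61.2 and 58.5 in control and 53.5, 53.7 and 59.9 in senescent libraries, a difference of -8.97 that was within the replicate spread (p = 0.2 in an exact permutation, two-sided, with n = 3 in each group).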

How the data were processed

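BMAL1-ChIP-seq of control and senescent MAFs was analysed from 6 peak lists. The 6 input libraries and the study's RNA-seq were not analysed here. The authors mapped paired reads to mm10 with the Burrows-Wheeler Aligner, removed duplicates with Picard (which the submitters' processing notes also name) and called peaks with MACS2 in each library separately at a false discovery rate of 1% or less. The MACS2 version and the use of input as its control are not given in the sources used here. The antibody is named as from Cell Signaling in the labels and from Abcam in the methods. The score the authors deposited was read as the −log10 of the q-value. This was inferred from the lowest score of each list, which was between 2.02 and 2.12 with 0 peaks under 2. The score depends on the depth and background of its library, so it was used for ranks within a list only. Longer lists may come from deeper or cleaner libraries.

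Peaks were given to the gene with the start site nearest to their midpoint (protein-coding transcripts of the GENCODE basic set M21), merged into regions if they shared 1 bp or more, and searched for exact motifs on both strands of GRCm38.p6 (RefSeq), whose chromosome names and lengths fitted the lists. Adamdec1 was counted with the Adam genes and antisense transcripts were left out. Promoter sequences came from RefSeq. Group means were tested by exact permutation, two-sided, over 20 arrangements, and counts of genes were set beside those of all genes, without a test. Python 3.11.15, pandas 2.3.3, numpy 2.4.6, scipy 1.17.1, pysam 0.24.0 and matplotlib 3.10.9 were used. The assignment, the calls in 1 group only and the permutation test were tested on simulated data, and the motif search was not. Genes named were those called in all 6 libraries, called in at least 2 libraries of 1 group and none of the other, with promoter peaks in at least 2 libraries, or among the 5 best-ranked, together with the inhibitors, well-known proteases and those the study names. Further genes (Adam9, Adam12, Adam15, Adam28, Adam30, Adam34, Adamts16, Adamts18, Adamtsl5 and Mmp16, and the genes of the chromosome 9 cluster) were chosen after their values were seen. The genes and lists were chosen with earlier results of these data known. Alternatives were a score threshold, equal list lengths, each library left out, a 100 kb limit, gene starts, other motif windows and promoter distances, pairing by replicate number and, chosen after seeing the data, leaving out Timp3. The replicate numbers were not treated as pairs: deviations of same-numbered libraries from their group means over the 16818 regions had correlations of -0.122, 0.142 and 0.113.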

Additional observations from a re-analysis of the deposited data

How the results depend on the processing

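Differences are senescent minus control. The ratio of the called share to that of all genes stayed above 0 under all 11 alternatives, from 0.147 to 0.198 with a library left out (exact permutation test, p = 0.1 each time), and was 0.232 above the median score and 0.312 within 100 kb (p = 0.1 by exact permutation for both), but 0.053 in lists of equal length (exact permutation test, p = 0.8). With a library left out, the other differences ranged from 3.37 (without senescent replicate 2) to 10.9 (without control replicate 3) percentage points for genes called, -0.303 to -0.156 for the share of peaks, 4.52 to 11.4 for promoter peaks, 4.80 to 20.8 for the E-box, -1.36 to 6.11 for AP-1 and -12.04 to -4.18 for the median rank percentile. Other settings lay beyond these ranges: genes called 1.19 and median rank percentile -17.3 in lists of equal length and -2.85 above the median score, share of peaks -0.0404 above the median score, promoter peaks 13.4 in lists of equal length and 16.8 within 3000 bp, E-box 21.8 anywhere in the peak (20.6 within 50 bp), and AP-1 12.3 in lists of equal length. Leaving out Timp3, chosen after seeing the data, turned the share of peaks to 0.0437 and AP-1 to -16.9 percentage points, promoter peaks to 1.92 and the E-box to 2.08. The cause of the AP-1 change was not tested. Genes called in senescent libraries only numbered 4. The number of such genes was 2 above the median score, 2 in lists of equal length and 2 under a rule of 3 libraries. With a library left out it was 2 to 6 (2 without senescent replicate 2 or 3, 6 without control replicate 3). The 2 genes in lists of equal length were Adamts12 and Timp2. None of the 4 genes kept its call there, since Adamts7 and Adamtsl2 were called in 1 senescent library each and Mmp14 and Timp1 in 0. The share of all genes moved in the same direction, from 3.42% to 2.39%, 2.59% and 1.48% in the first 3 of these settings, 1.63% and 2.21% without senescent replicate 2 or 3, and 7.85% without control replicate 3. Genes called in control libraries only numbered 2. They were 0 above the median score, 0 in lists of equal length, 0 under a rule of 3 libraries, 1 within 100 kb, and 0 to 2 with a library left out (0 without control replicate 1 or 3), where the share of all genes was 1.64% and became 1.07%, 2.07%, 0.499%, 1.41%, and 1.20% or 0.521%. Genes called in all 6 libraries numbered 4. They were 1 above the median score, 2 in lists of equal length and 4 to 6 with a library left out, and the share of all genes was 5.14%, 2.75% above the median score and 3.50% in lists of equal length. The replicate block, which pairs libraries by number, left the differences at 7.14, 0.176, -0.205, 7.25, 10.3, 1.98 and -8.97, with exact sign-flip p from 0.25, the smallest possible, to 0.75, and changed no call. The unknown depth limits every absence of a call, above all in control replicates 1 and 2, whose lists were the shortest.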

Other observations

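Of 30 further genes of pericellular proteolysis and its substrates, 17 had a peak in at least 1 library (56.7%, against 36.4% of all genes). The list was chosen with earlier results known. The stretch of genome that falls to a gene ranged from 10.5 kb (Rhbdf1) to 779 kb (Pappa) among them. The median over all genes was 47.3 kb. The part of this length in the count was not tested. Fn1 (fibronectin) had 5, 7 and 25 peaks in control replicates 1 to 3 and 5, 12 and 5 in senescent replicates 1 to 3. Pappa, a metalloprotease that cleaves IGF-binding proteins, had 1, 3 and 6 peaks in control and 1, 2 and 1 in senescent libraries. Ece1, the endothelin-converting enzyme, had 1, 0 and 0 peaks in control and 2, 4 and 2 in senescent libraries, so every senescent library had more than any control library.

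Calls in control libraries alone were made at Mme (neprilysin), with 1, 1 and 3 peaks, and at Acan (aggrecan, a substrate of ADAMTS proteases), with 1, 1 and 2 peaks. These were 2 of the 30 genes (6.67%), against 1.64% of all genes called in at least 2 control and no senescent libraries. Among genes of plasminogen activation, Plaur had 0, 1 and 2 peaks in control and 1, 6 and 2 in senescent libraries, Plat had 3 peaks in senescent replicate 2 alone, and Plau had 1 in control replicate 3 alone. The 13 uncalled genes included Reck, Bmp1 and Vcan (versican).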
